A study of Caenorhabditis elegans with 12 samples.

Results

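The trehalose and glycogen genes of *C. elegans* were examined as a group of 10 genes out of the 46778 listed in the count tables. They were chosen by name and function and not by a measured value, though earlier results of these data were known at the time. The group held *tps-1*, *tps-2*, *gob-1*, *tre-1*, *tre-2*, *tre-3*, *tre-4*, *tre-5*, *gsy-1* and *pygl-1*. RNA was sequenced from whole adult worms of the N2 strain in 12 libraries, 3 from each of 4 conditions. The conditions were *lpin-1(RNAi)* worms given additional glucose, *lpin-1(RNAi)* worms on control diets, *control(RNAi)* worms given additional glucose and *control(RNAi)* worms on control diets, and worms given additional glucose are called glucose-fed. *control(RNAi)* worms are called WT here, because they carry no mutation and were fed bacteria making a control double-stranded RNA. All 4 groups ate RNAi bacteria from the egg stage on plates with 10 mM IPTG, which switches on the double-stranded RNA, and at day 1 of adulthood were moved to plates with 10 µM FUdR, which stops progeny from hatching. Glucose-rich plates held an additional 2% glucose from that transfer on, and stocks were kept at 20 °C. RNAi lowers a transcript without deleting the gene, and whole-worm RNA mixes all tissues, so that fewer cells of a type and less RNA per cell cannot be told apart. The study asked how worms with little LPIN-1, a lipin phosphatidic acid phosphatase, respond to a glucose-rich diet.

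Trehalose is a disaccharide made of a pair of glucose units, and it is a major sugar of nematodes. Trehalose-6-phosphate synthase joins UDP-glucose to glucose-6-phosphate, trehalose-6-phosphate phosphatase removes the phosphate, and trehalase splits trehalose back into glucose. Glycogen, the branched glucose polymer, draws on the same UDP-glucose through glycogen synthase and is broken down by glycogen phosphorylase, so the stores share a precursor. In *C. elegans*, trehalose is known for protecting larvae from drying, and added glucose is known to raise the stores of both sugars.

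The synthases are *tps-1* (WBGene00006602, chrX:17467121-17474534 on the minus strand) and *tps-2* (WBGene00006603, chrII:14600902-14610554 on the plus strand) in the WBcel235 build. The phosphatase is *gob-1* (WBGene00001649, chrX:15493602-15497504, plus strand), named for the gut obstruction that its loss causes. The 5 trehalase genes lie on 5 chromosomes. They are *tre-1* (WBGene00006607, chrI:6554729-6558665, plus strand), *tre-2* (WBGene00006608, chrIV:6876731-6883442, minus strand), *tre-3* (WBGene00006609, chrV:11709769-11715903, minus strand), *tre-4* (WBGene00006610, chrX:13472155-13475926, plus strand) and *tre-5* (WBGene00006611, chrII:52997-55304, minus strand). Glycogen synthase is *gsy-1* (WBGene00001793, chrII:12866446-12878121, minus strand) and glycogen phosphorylase is *pygl-1* (WBGene00020696, chrV:3579023-3585042, plus strand). All 10 are protein-coding genes with whole-number counts in all 12 libraries. An exon of *tps-2* overlaps one of *arl-3* on the same strand, so reads in that stretch are uncertain in origin. An exon of *tre-4* overlaps one of *efn-3* on the other strand. The libraries were stranded, so reads there are uncertain only if the counting ignored the strand, which was not checked.

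Library totals lay between 16546027 and 31534284 counts (median 24266842). Levels are CPM, each count divided by its library's total and put on one scale, after correction with TMM, whose factors were 1.03 to 1.17 in *lpin-1(RNAi)* and 0.903 to 0.968 in WT libraries. The RNAi target *lpin-1* averaged 111.6 ± 9.30 CPM in glucose-fed *lpin-1(RNAi)* worms, against 165 ± 15.8 CPM in glucose-fed WT worms (SD, n = 3 each). On control diets it averaged 89.3 ± 5.01 CPM in *lpin-1(RNAi)* and 158 ± 12.3 CPM in WT worms. The groups did not overlap on either diet, and the knockdown was partial. Added glucose raised *lpin-1* itself by log2 0.32 in *lpin-1(RNAi)* worms (adjusted p = 0.0455 by edgeR), a call kept in 4 of 12 cases with a library left out. In WT worms it changed by 0.06 (adjusted p = 0.811 by edgeR), and the difference between the RNAi groups did not pass (adjusted p = 0.594 by edgeR). The part of an unequal knockdown in the glucose comparisons was not tested. Summed over 5 intestine markers, CPM ranged from 227 to 262 in glucose-fed *lpin-1(RNAi)* worms, 355 to 384 in *lpin-1(RNAi)* worms on control diets, 569 to 613 in glucose-fed WT worms and 738 to 772 in WT worms on control diets, with none of the 5 at 0 in any library. Over 5 hypodermis markers the sums were 989 to 1255, 448 to 604, 2332 to 2821 and 2296 to 2826 CPM in the same order of groups, with *rol-6* at 0 in at least 1 library. Over 5 neuron markers they were 250 to 296, 284 to 294, 143 to 158 and 139 to 157 CPM, with none at 0. Single markers were also tested for *lpin-1* RNAi. With added glucose, 4 of 5 intestine, 1 of 5 hypodermis and 1 of 5 neuron genes passed in the direction of these sums, and 1 intestine gene passed against it. Without added glucose, 3 of 5 intestine, 1 of 5 hypodermis and 1 of 5 neuron genes passed in that direction. Against it passed 1 intestine and 1 neuron gene, and the median log2 fold change of the 5 neuron genes was -0.17. A sum therefore need not stand for each of its markers. The intestine sums differed between RNAi groups and between diets without overlap, the hypodermis sums between RNAi groups and between the diets of *lpin-1(RNAi)* worms, and the neuron sums between RNAi groups. With added glucose, other sums also differed between *lpin-1(RNAi)* and WT worms without overlap. Over 4 body wall muscle markers they were 1338 to 1679 against 786 to 1153 CPM. Over 6 germline and oocyte markers they were 3225 to 3631 against 3732 to 4399 CPM. The 3 adult-stage markers gave 31328 to 35799 against 37260 to 55754 CPM. Without added glucose these sums overlapped, and sperm sums overlapped in every comparison. The part of all these sums in the results below was not tested. Nothing in the labels says that replicates were separate cultures, so that p-values measure the spread between these libraries.

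**Figure D1:**
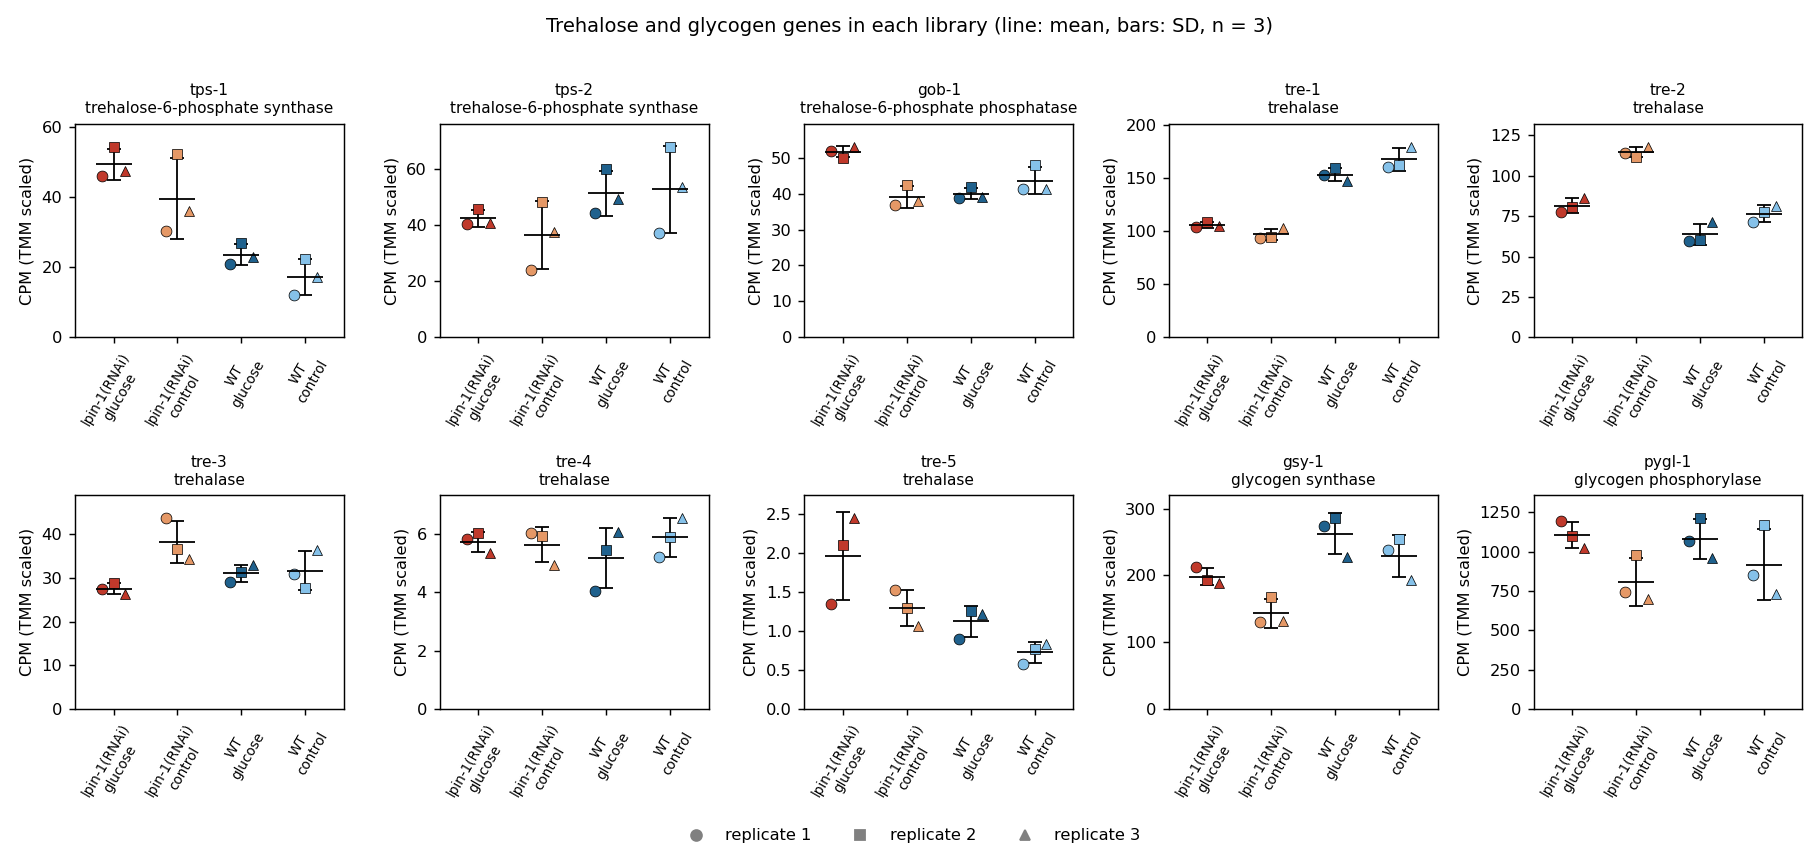
CPM (y axis, from 0) of the 10 trehalose and glycogen genes in each of the 12 libraries, with groups in the order *lpin-1(RNAi)* glucose-rich, *lpin-1(RNAi)* control, WT glucose-rich and WT control; points are libraries and bars mark group means with SD. The *tps-1* libraries of *lpin-1(RNAi)* worms (30.3 to 54.3 CPM) all lay above those of WT worms (12.2 to 26.8 CPM), and the *tre-1* libraries (93.1 to 108 CPM) all lay below those of WT worms (147 to 179.6 CPM).

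Levels of different genes were compared per kilobase of exon. In WT worms on control diets *pygl-1* was highest, with 299.5 ± 73.9 CPM per kb, followed by *gsy-1* with 93.4 ± 12.8 and *tre-1* with 75.8 ± 4.75 CPM per kb (SD, n = 3 each). Then came *tre-2* (35.7 ± 2.35), *gob-1* (22.3 ± 1.94), *tre-3* (16.1 ± 2.27) and *tps-2* (13.8 ± 4.03 CPM per kb). The lowest were *tps-1* (3.95 ± 1.18), *tre-4* (2.97 ± 0.333) and *tre-5* (0.342 ± 0.0626 CPM per kb). The ranges of 3 neighbouring pairs in this order overlapped, namely *gsy-1* with *tre-1*, *tre-3* with *tps-2*, and *tps-1* with *tre-4*. Glycogen phosphorylase RNA was thus the most abundant of the set per length and *tre-5* RNA the least, with only 12 to 62 counts in a library.

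To ask what *lpin-1* RNAi did to these genes, *lpin-1(RNAi)* worms were compared with WT worms on each diet. *lpin-1* RNAi raised *tps-1*, *tre-2* and *tre-5* and lowered *tre-1* and *gsy-1* on both diets, and on glucose-rich diets it also raised *gob-1*. The changes therefore ran in opposite directions within the trehalase family. Within the synthases only *tps-1* passed the test in the fit without a replicate block. With the replicate number as a block, *tps-2* passed as a fall on control diets (log2 -0.54, adjusted p = 0.00442 by edgeR). On control diets 5 of 10 genes passed an adjusted p of 0.05 in the quasi-likelihood test of edgeR, adjusted by Benjamini-Hochberg, 3 up and 2 down, where 39.3% of the 14696 tested genes passed, 19.5% up and 19.8% down. With added glucose 6 of 10 passed (4 rose, 2 fell), where 31.8% of all tested genes passed, 16.0% up and 15.8% down. All 10 genes passed the filter on low counts. The median log2 fold change of the 10 was -0.11 on control diets, against 0 over all tested genes, and 0.09 on glucose-rich diets, against 0.03. The median size of change, without its sign, was 0.56 and 0.36, against 0.36 and 0.32 over all tested genes. With library totals alone in place of TMM, the median of all genes shifted by 0.25 on control diets, with a shift of 0.20 under added glucose, the share of called genes that rose was 75.9% and 77.4% in place of 49.7% and 50.3%, and among the 10 genes 4 rose and 2 fell without added glucose, while 4 rose and 1 fell with it. The 5 called on control diets and the 6 called on glucose-rich diets kept their direction under that scaling.

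**Figure D2:**
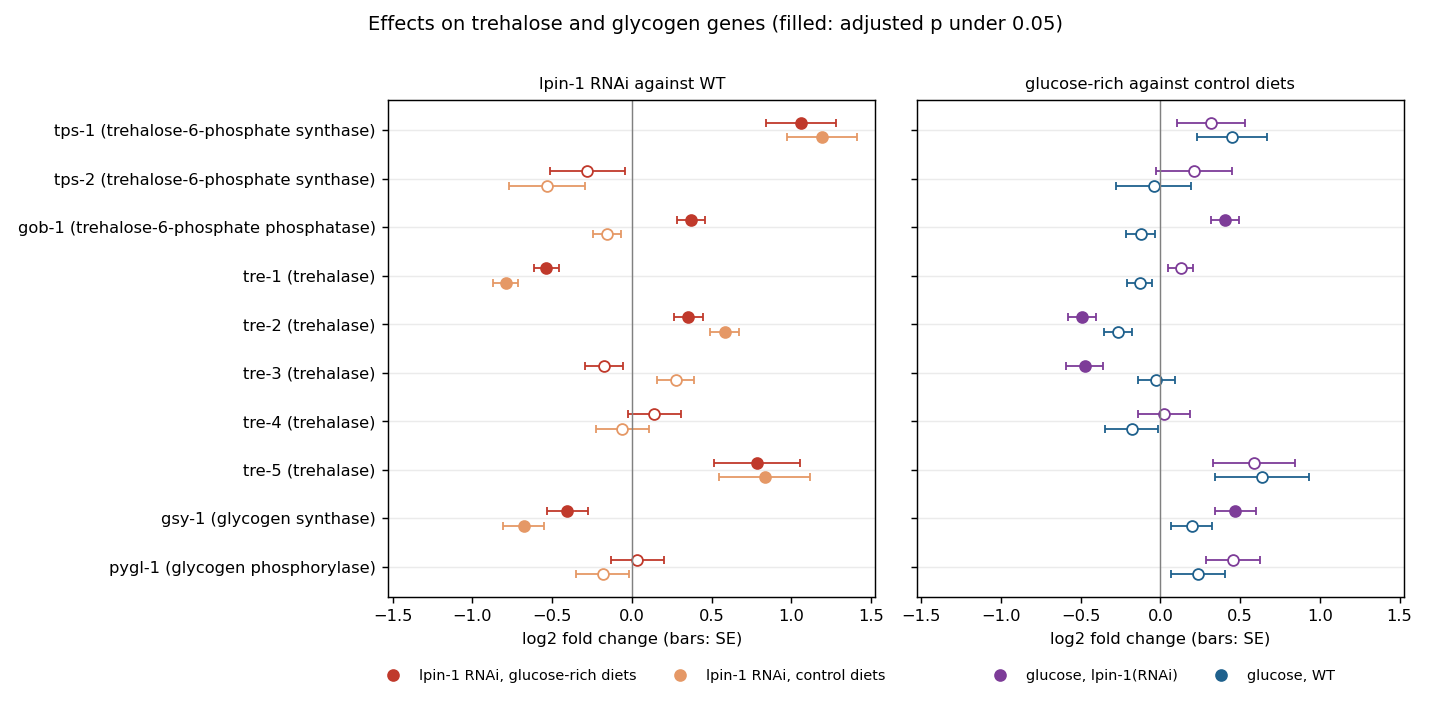
Log2 fold changes (x axis) of the 10 genes with standard errors as bars, for *lpin-1* RNAi against WT on each diet and for glucose-rich against control diets in each RNAi group; filled points passed an adjusted p of 0.05. *tps-1* lies beyond 1 on the log2 scale for *lpin-1* RNAi on both diets, and no gene has a filled point for glucose in WT worms.

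Of the synthases, *tps-1* showed the largest change of the set. On glucose-rich diets it had 45.9, 54.3 and 47.4 CPM in *lpin-1(RNAi)* worms, against 21.0, 26.8 and 22.8 CPM in WT worms. On control diets it had 30.3, 52.3 and 36.0 CPM in *lpin-1(RNAi)* worms, against 12.2, 22.4 and 17.1 CPM in WT worms. The groups did not overlap on either diet, although replicates of a group spread widely on control diets. *tps-1* rose 2.29-fold on control diets (log2 1.19, SE 0.219, adjusted p = 0.000688 by edgeR's quasi-likelihood test) and 2.09-fold on glucose-rich diets (log2 1.06, SE 0.217, adjusted p = 0.0021 by the same edgeR test). It was the only gene of the 10 that passed with a change above 2-fold, where 10.0% of all tested genes rose that far on control diets, as did 8.04% with added glucose. It passed on both diets under every alternative setting and with every library left out in turn.

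The other synthase, *tps-2*, did not follow *tps-1*. On glucose-rich diets *tps-2* had 40.4, 45.8 and 40.8 CPM in *lpin-1(RNAi)* worms, against 44.4, 60.1 and 49.4 CPM in WT worms. Control diets gave it 24.1, 48.3 and 37.5 CPM in *lpin-1(RNAi)* worms, against 37.0, 67.9 and 53.4 CPM in WT worms. Both pairs of groups overlapped, although in every same-numbered pair the *lpin-1(RNAi)* library was the lower. The log2 fold change was -0.53 on control diets (95% interval -1.04 to -0.02, adjusted p = 0.0956 by edgeR) and -0.28 on glucose-rich diets (95% interval -0.79 to 0.23, adjusted p = 0.407 by edgeR). With the replicate number as a block, *tps-2* passed on control diets (log2 -0.54, adjusted p = 0.00442 by edgeR), and it also passed there without a filter on low counts (adjusted p = 0.0433), without the first WT library on control diets (adjusted p = 0.0267) and without the second *lpin-1(RNAi)* library on control diets (adjusted p = 0.016).

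The balance of the synthase genes differed between RNAi groups, and in WT worms also between diets. Per kilobase, *tps-1* made up 50.6 ± 0.503% of the summed synthase level in glucose-fed *lpin-1(RNAi)* worms and 49.1 ± 3.37% in *lpin-1(RNAi)* worms on control diets, against 28.9 ± 0.562% in glucose-fed WT worms and 22.3 ± 0.306% in WT worms on control diets (SD, n = 3 each). The share lay between 45.8% and 52.6% in the 6 *lpin-1(RNAi)* libraries and between 22.0% and 29.4% in the 6 WT libraries. Within WT worms the diets did not overlap, with 28.3% to 29.4% with added glucose and 22.0% to 22.5% without it. The sum of both synthases was spread more widely, with 21.1 to 24.4, 13.2 to 24.6, 16.4 to 21.8 and 12.4 to 22.8 CPM per kb in the same order of groups. The share was thus steady between libraries of a group whose summed level differed, most plainly in WT worms on control diets, where the sum differed between 12.4 and 22.8 CPM per kb and the share between 22.0% and 22.5%. In all 4 groups replicate 2 was the highest and replicate 1 the lowest for both synthases, a pattern found in 91 of the 14696 tested genes (0.619%). Replicate 2 also had the largest library total in all 4 groups. Replicate 1 had the smallest total in every group except *lpin-1(RNAi)* worms on control diets. Whether the order goes with library totals was not tested. The shares were not tested, because both genes enter each of them.

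**Figure D3:**
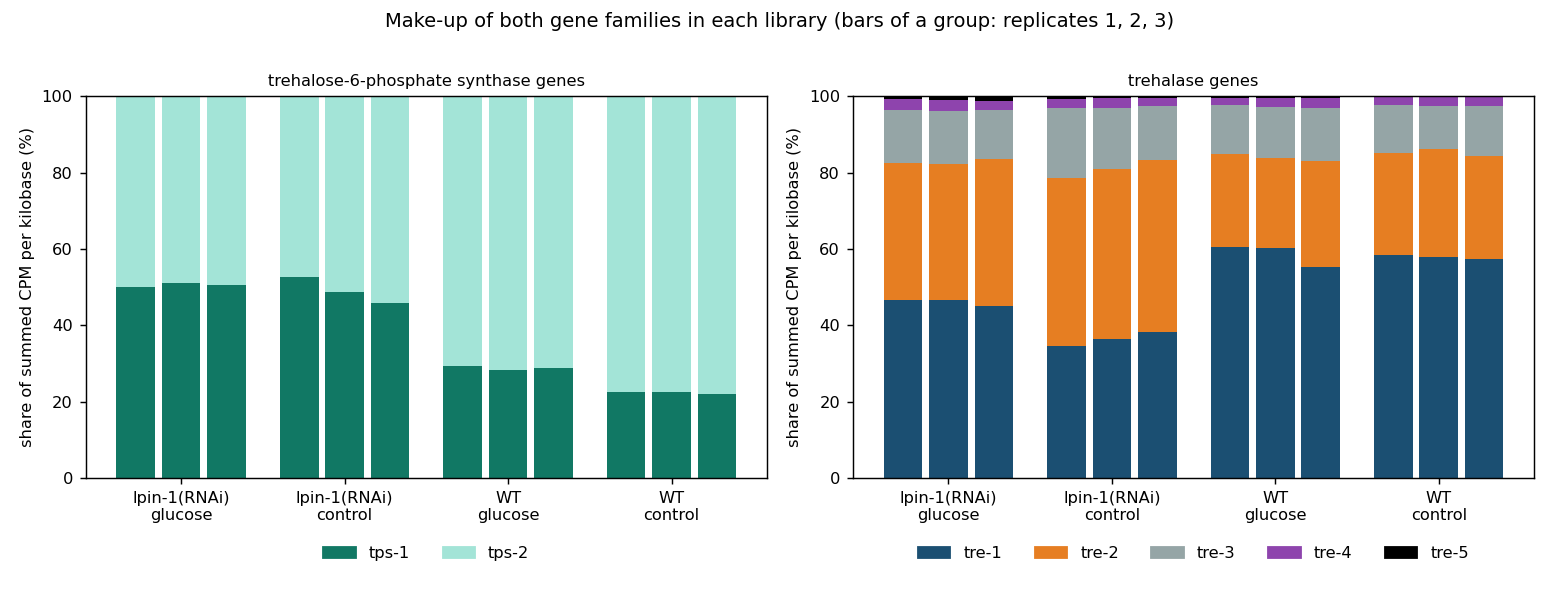
Share in percent of the summed CPM per kilobase taken by each synthase gene and by each trehalase gene in the 12 libraries, grouped by RNAi and diet. *tps-1* takes 45.8% to 52.6% of the synthase sum in *lpin-1(RNAi)* libraries and 22.0% to 29.4% in WT libraries, and *tre-1* takes 34.7% to 46.7% of the trehalase sum in *lpin-1(RNAi)* libraries and 55.4% to 60.6% in WT libraries.

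The phosphatase *gob-1* passed in both comparisons that set glucose-fed *lpin-1(RNAi)* worms against another group, and in no other comparison. It had 51.8, 49.99 and 53.1 CPM in glucose-fed *lpin-1(RNAi)* worms, against 38.9, 41.8 and 39.2 CPM in glucose-fed WT worms. Its control-diet levels were 36.8, 42.5 and 37.8 CPM in *lpin-1(RNAi)* worms, against 41.3, 47.9 and 41.4 CPM in WT worms. The 3 libraries of glucose-fed *lpin-1(RNAi)* worms were above the other 9. *gob-1* rose by 0.37 on the log2 scale with *lpin-1* RNAi on glucose-rich diets (SE 0.0883, adjusted p = 0.00601 by edgeR), while on control diets the log2 fold change was -0.16 (95% interval -0.35 to 0.03, adjusted p = 0.181 by edgeR). The rise no longer passed without the first or the third *lpin-1(RNAi)* library on glucose-rich diets (adjusted p = 0.0612 and 0.0727 by edgeR).

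Among the trehalases, *tre-1* had the lowest p-value of the 10 genes on both diets. It had 104, 108 and 105 CPM in glucose-fed *lpin-1(RNAi)* worms, against 153, 159 and 147 CPM in glucose-fed WT worms. With control diets it had 93.1, 94.4 and 103 CPM in *lpin-1(RNAi)* worms, against 161, 162 and 179.6 CPM in WT worms. All 6 *lpin-1(RNAi)* libraries lay below all 6 WT libraries. *tre-1* fell 1.73-fold on control diets (log2 -0.79, SE 0.0770, adjusted p = 2.58e-06 by edgeR) and fell by 0.54 on the log2 scale on glucose-rich diets (SE 0.0768, adjusted p = 0.000128 by edgeR). Both calls held under every alternative setting and with each library left out.

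*tre-2*, another trehalase, moved the other way. On glucose-rich diets it had 77.2, 80.9 and 86.4 CPM in *lpin-1(RNAi)* worms, against 59.5, 60.3 and 71.4 CPM in WT worms. Without added glucose it had 114, 111.6 and 118 CPM in *lpin-1(RNAi)* worms, against 71.1, 77.5 and 81.1 CPM in WT worms. The groups did not overlap on either diet, and the *lpin-1(RNAi)* worms on control diets had the highest values of all. *tre-2* rose by 0.58 on the log2 scale on control diets (SE 0.0894, adjusted p = 0.000162 by edgeR) and by 0.36 on the log2 scale on glucose-rich diets (SE 0.0898, adjusted p = 0.00852 by edgeR). The second call was lost without the third *lpin-1(RNAi)* library on glucose-rich diets (log2 0.25, adjusted p = 0.0964 by edgeR).

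The trehalase *tre-3* had 27.6, 28.9 and 26.2 CPM in glucose-fed *lpin-1(RNAi)* worms, against 29.1, 31.3 and 32.9 CPM in glucose-fed WT worms. On control diets the levels were 43.7, 36.7 and 34.4 CPM in *lpin-1(RNAi)* worms, against 30.8, 27.7 and 36.5 CPM in WT worms. It passed for *lpin-1* RNAi on neither diet. With added glucose its log2 fold change was -0.17 (95% interval -0.43 to 0.08, adjusted p = 0.291 by edgeR), although the groups did not overlap there. The log2 fold change was 0.27 on control diets (adjusted p = 0.0802 by edgeR), where it passed without the third WT library on control diets (log2 0.39, adjusted p = 0.0193) and with library totals alone (log2 0.53, adjusted p = 0.00543).

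The lowly expressed *tre-4* had between 4.02 and 6.53 CPM across the 12 libraries, and its groups overlapped in every comparison. Its log2 fold change with *lpin-1* RNAi was -0.06 on control diets (95% interval -0.41 to 0.30) and 0.14 on glucose-rich diets (95% interval -0.22 to 0.50). *tre-5* had 32, 62 and 60 counts in glucose-fed *lpin-1(RNAi)* worms and 49, 43 and 20 counts in *lpin-1(RNAi)* worms on control diets. It had 14, 36 and 25 counts in glucose-fed WT worms and 12, 21 and 20 counts in WT worms on control diets. In CPM these were 1.34 to 2.45, 1.06 to 1.52, 0.894 to 1.26 and 0.579 to 0.837 in the same order of groups, and *lpin-1(RNAi)* libraries lay above WT libraries on each diet. *tre-5* rose by 0.83 on the log2 scale on control diets (SE 0.285, adjusted p = 0.0331 by edgeR) and by 0.79 on glucose-rich diets (SE 0.269, adjusted p = 0.0400 by edgeR). These calls did not hold under every setting. DESeq2 gave adjusted p = 0.0514 on control diets and adjusted p = 0.0625 with added glucose, and leaving out single libraries ended the call in 4 of 12 cases on control diets (adjusted p up to 0.129 by edgeR) and in 8 of 12 on glucose-rich diets (adjusted p up to 0.219 by edgeR).

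Summed over the 5 trehalases, the level was 104 ± 2.67 CPM per kb in glucose-fed *lpin-1(RNAi)* worms, 120.1 ± 2.75 in *lpin-1(RNAi)* worms on control diets, 118 ± 3.32 in glucose-fed WT worms and 131 ± 9.11 in WT worms on control diets (SD, n = 3 each). The opposite changes of *tre-1* and *tre-2* moved their shares of that sum. *tre-1* made up 46.1 ± 0.841% in glucose-fed *lpin-1(RNAi)* worms and 36.5 ± 1.71% in *lpin-1(RNAi)* worms on control diets, against 58.8 ± 2.93% and 57.9 ± 0.458% in WT worms on glucose-rich and control diets. *tre-2* made up 36.7 ± 1.54% and 44.5 ± 0.594% in *lpin-1(RNAi)* worms, against 25.2 ± 2.19% and 27.3 ± 1.01% in WT worms, in the same order of diets. In *lpin-1(RNAi)* worms on control diets, *tre-2* RNA was therefore higher per length than *tre-1* RNA in all 3 libraries, while in the other 9 libraries *tre-1* was higher.

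Glycogen synthase *gsy-1* fell with *lpin-1* RNAi. On glucose-rich diets it had 213, 193 and 188 CPM in *lpin-1(RNAi)* worms, against 273, 286 and 228 CPM in WT worms. On control diets its libraries had 130.1, 168 and 131.5 CPM in *lpin-1(RNAi)* worms, against 239, 254 and 194 CPM in WT worms. The groups did not overlap on either diet. *gsy-1* fell 1.60-fold on control diets (log2 -0.68, SE 0.130, adjusted p = 0.000979 by edgeR) under every alternative setting and with each library left out. On glucose-rich diets it fell by 0.40 on the log2 scale (SE 0.130, adjusted p = 0.0306 by edgeR), but not with library totals alone (log2 -0.21, adjusted p = 0.183), nor without the first or second WT library on glucose-rich diets (adjusted p = 0.0976 and 0.107) or the second or the third *lpin-1(RNAi)* library on glucose-rich diets (adjusted p = 0.0593 and 0.0625).

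Glycogen phosphorylase *pygl-1* had 1195, 1102 and 1024 CPM in glucose-fed *lpin-1(RNAi)* worms, against 1068, 1213 and 959.6 CPM in glucose-fed WT worms. On control diets it had 743, 979 and 697 CPM in *lpin-1(RNAi)* worms, against 849, 1168 and 731 CPM in WT worms. The groups overlapped on both diets, and in these samples *pygl-1* passed for *lpin-1* RNAi on neither. The log2 fold change was -0.18 on control diets (95% interval -0.55 to 0.18, adjusted p = 0.431 by edgeR) and 0.04 on glucose-rich diets (95% interval -0.33 to 0.40, adjusted p = 0.899 by edgeR).

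To ask what glucose did, worms on glucose-rich diets were compared with worms on control diets within each RNAi group. In *lpin-1(RNAi)* worms, glucose raised *gob-1* and *gsy-1* and lowered *tre-2* and *tre-3*, none of them by as much as 2-fold. That is 4 of 10 genes in the quasi-likelihood test of edgeR, adjusted by Benjamini-Hochberg, where 13.0% of all tested genes passed, 5.52% up and 7.49% down. In WT worms none of the 10 passed, where 5.61% of all tested genes passed; 1 of 10, *tre-2*, had an unadjusted p under 0.05, against 17.4% of all tested genes, and DESeq2 called none. The median log2 fold change was 0.26 in *lpin-1(RNAi)* worms and -0.03 in WT worms, against -0.0026 over all tested genes in both. The groups of *lpin-1(RNAi)* worms did not overlap between diets for 6 of the 10 genes, against 35.6% of all tested genes, and those of WT worms for 2 of the 10, against 18.6%.

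*gob-1* rose 1.32-fold with glucose in *lpin-1(RNAi)* worms (log2 0.40, SE 0.0879, adjusted p = 0.0086 by edgeR), with its glucose-fed libraries above its control libraries in all cases. It no longer passed without the third control-diet library or the first or the third glucose-diet library of *lpin-1(RNAi)* worms (adjusted p = 0.0655, 0.0657 and 0.0695 by edgeR). *gsy-1* rose 1.39-fold in *lpin-1(RNAi)* worms (log2 0.47, SE 0.130, adjusted p = 0.0299 by edgeR), and averaged 198 ± 13.0 CPM in glucose-fed *lpin-1(RNAi)* worms, against 143 ± 21.2 CPM in *lpin-1(RNAi)* worms on control diets (SD, n = 3 each). This call was lost without the first or the third control-diet library or without any one of the glucose-diet libraries of *lpin-1(RNAi)* worms (adjusted p = 0.0786 to 0.175 by edgeR). *tre-2* fell by 0.49 on the log2 scale in *lpin-1(RNAi)* worms (SE 0.0892, adjusted p = 0.00274 by edgeR), the call that every setting and every left-out library kept. *tre-3* fell by 0.48 (SE 0.117, adjusted p = 0.0166 by edgeR), and missed the threshold only without the third glucose-diet library of *lpin-1(RNAi)* worms (adjusted p = 0.0546). Without that library *tre-2* alone passed, and without the third control-diet or the first glucose-diet library of *lpin-1(RNAi)* worms *tre-2* and *tre-3* passed.

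The remaining 6 genes did not pass for glucose in *lpin-1(RNAi)* worms. For *pygl-1*, the log2 fold change was 0.46 (95% interval 0.09 to 0.82, adjusted p = 0.0992 by edgeR), with all 3 glucose-fed libraries above all 3 control libraries, and among the cases with a library left out it passed in 1, without the second WT library on control diets (adjusted p = 0.0382). *tre-1* had 0.13 (95% interval -0.04 to 0.29), *tps-1* 0.32 (95% interval -0.14 to 0.77) and *tps-2* 0.21 (95% interval -0.30 to 0.72). The low-count *tre-5* had 0.59 (95% interval 0.03 to 1.15, adjusted p = 0.159 by edgeR), the largest change of the 10 genes in this comparison. *tre-4* had 0.02 (95% interval -0.33 to 0.38). The wide intervals of both synthases go with the spread between replicates described above. With the replicate number as a block, *pygl-1* and *tps-1* did pass (log2 0.48 and 0.35, adjusted p = 0.00695 and 0.0407 by edgeR).

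In WT worms the values for glucose were -0.27 for *tre-2* (95% interval -0.46 to -0.07, adjusted p = 0.119 by edgeR), 0.45 for *tps-1* (95% interval -0.03 to 0.93, adjusted p = 0.329 by edgeR) and 0.64 for *tre-5* (adjusted p = 0.289 by edgeR). With the replicate number as a block, *tps-1* passed at log2 0.47 (adjusted p = 0.0241 by edgeR) and *tre-2* at -0.27 (adjusted p = 0.0306 by edgeR). *gsy-1* had 0.20 (95% interval -0.08 to 0.48) and *pygl-1* had 0.24 (95% interval -0.13 to 0.60). Changes of the size measured in *lpin-1(RNAi)* worms were thus within the interval for both glycogen genes in WT worms. For *gob-1* the value in WT worms was -0.12 (95% interval -0.32 to 0.07), an interval that did not reach the 0.40 measured in *lpin-1(RNAi)* worms.

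Whether glucose acted differently in *lpin-1(RNAi)* and WT worms was tested with an interaction term, the glucose effect in *lpin-1(RNAi)* minus that in WT worms. None of the 10 genes passed in the quasi-likelihood test of edgeR, adjusted by Benjamini-Hochberg, where 1.61% of all tested genes passed. At an unadjusted p under 0.05 there were 3, *gob-1*, *tre-1* and *tre-3*, against 9.94% of all tested genes, and DESeq2 called 1 of 10, *gob-1*. *gob-1* came nearest in edgeR (log2 0.53, SE 0.125, adjusted p = 0.0571). It passed in DESeq2 (adjusted p = 0.00564), and in edgeR with the replicate number as a block (adjusted p = 0.0189) and where at least 10 counts were required in every library (adjusted p = 0.0488). With single libraries left out its adjusted p was 0.0542 to 0.250 by edgeR. *tre-3* had -0.45 (95% interval -0.81 to -0.09, adjusted p = 0.295 by edgeR) and *tre-1* had 0.26 (95% interval 0.02 to 0.49, adjusted p = 0.422 by edgeR). For *gsy-1* the difference was 0.27 (95% interval -0.12 to 0.67), so that its response in *lpin-1(RNAi)* worms was not shown to differ from that in WT worms.

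The enzymes around these genes were counted as a list of 19 others of the pathway, all of them tested. With *lpin-1* RNAi on control diets 2 rose and 8 fell, 52.6% against the 39.3% of all tested genes, and on glucose-rich diets 2 rose and 4 fell, 31.6% against 31.8%. The hexokinase gene *hxk-3* and the acid alpha-glucosidase relative *aagr-4* rose on both diets, *aagr-4* by log2 1.36 on control diets and by log2 0.85 with added glucose (SE 0.148 and 0.147). The relatives *aagr-1* and *aagr-2* fell on both diets, *aagr-1* by 1.40 and 1.59 on the log2 scale (SE 0.103 and 0.106, adjusted p = 1.8e-07 and 1.28e-07 by edgeR). The genes *pgm-1* and *pgm-2*, listed here as phosphoglucomutases, fell on both diets as well, *pgm-2* by 0.73 on control diets and by 0.52 with added glucose (SE 0.0663 and 0.0662). On control diets the others that fell were *hxk-2* (-0.49), *rml-1* (-0.33), D1005.2 (-0.57) and T04A8.7 (-0.47), and these 4 also passed in DESeq2. With library totals alone neither these 4 nor *aagr-2* passed on control diets (adjusted p = 0.0799 to 0.550 by edgeR), and *pgm-1* did not pass on glucose-rich diets (log2 -0.13, adjusted p = 0.307, against -0.33 with TMM). That scaling called 6 of the 19 on control diets in place of 10. They were the falls of *pgm-1*, *pgm-2* and *aagr-1*, the rises of *hxk-3* and *aagr-4*, and *gsk-3*, which TMM did not call. The larger number of falls on control diets therefore depended on the scaling. With single libraries left out, *rml-1* passed in 5 of 12 cases, T04A8.7 in 11 of 12, *hxk-3* in 9 of 12 on each diet and *pgm-1* on glucose-rich diets in 8 of 12, while *aagr-1*, *aagr-2*, *aagr-4* and *pgm-2* passed in all 12 on both diets. An exon of *pgm-2* overlaps one of *klp-19* and an exon of D1005.2 overlaps one of D1005.6, on the other strand in both cases.

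**Figure D4:**
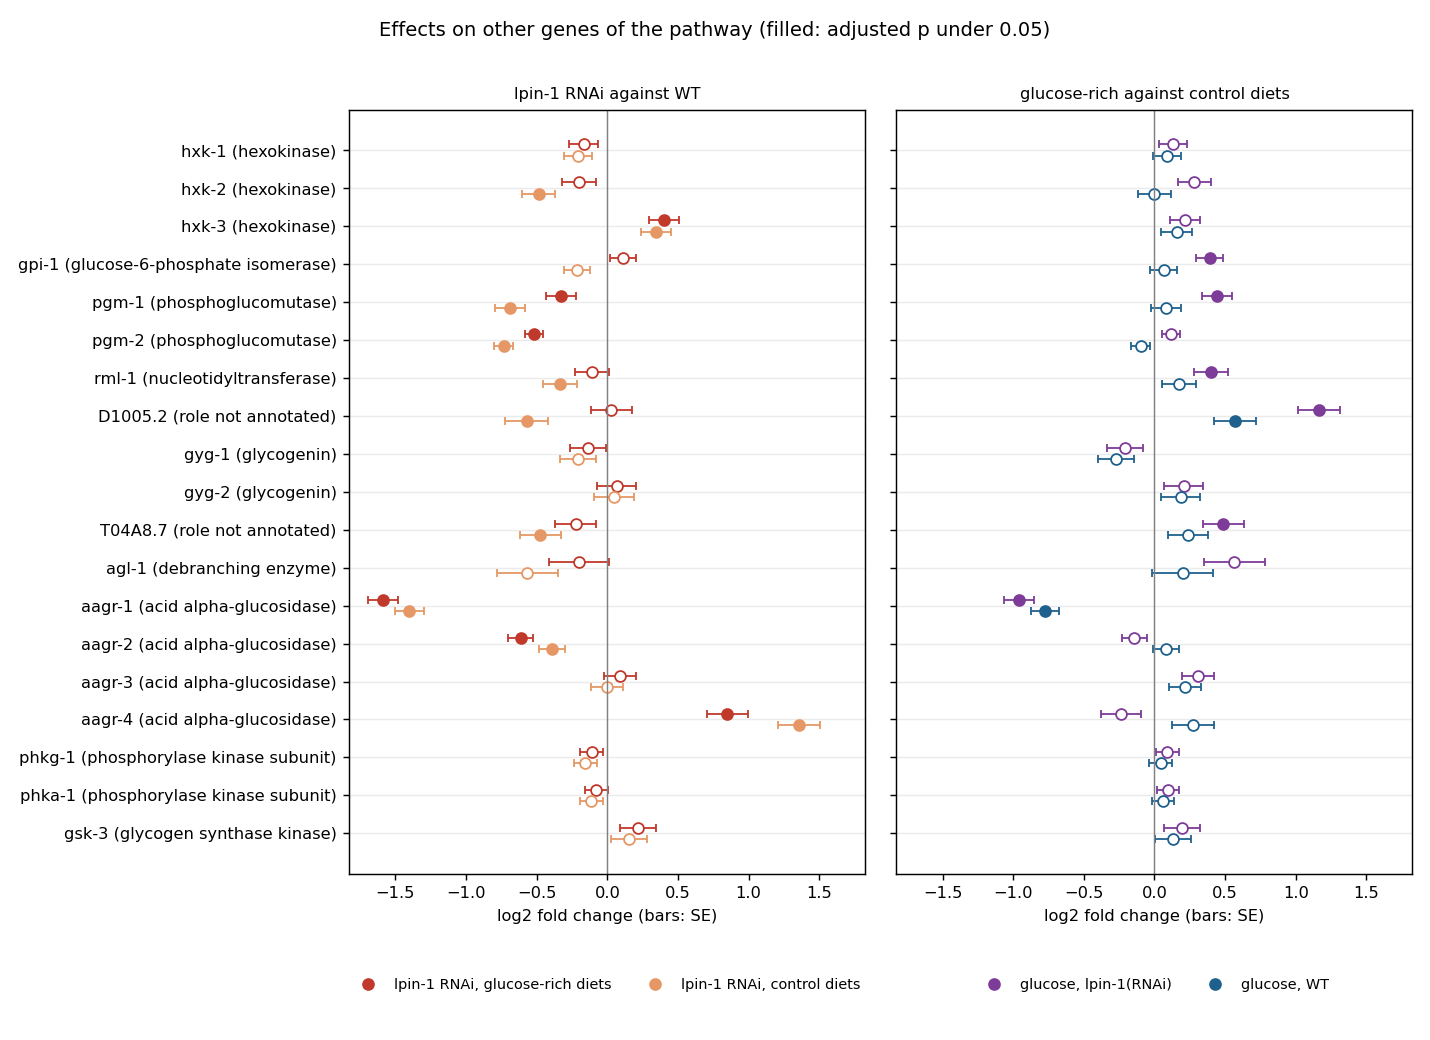
Log2 fold changes (x axis) of the 19 other genes of the pathway, with standard errors as bars, for *lpin-1* RNAi against WT and for glucose-rich against control diets; filled points passed an adjusted p of 0.05. *aagr-1* is to the left of 0 in all 4 comparisons and D1005.2 to the right for glucose in both RNAi groups, while the glycogenins *gyg-1* and *gyg-2* have open points only.

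With glucose, 5 of the 19 rose and 1 fell in *lpin-1(RNAi)* worms, 31.6% against the 13.0% of all tested genes, and 1 rose and 1 fell in WT worms, 10.5% against 5.61%. *aagr-1* fell in both, by 0.96 in *lpin-1(RNAi)* and 0.77 in WT worms on the log2 scale (adjusted p = 6.33e-05 and 0.000523 by edgeR). D1005.2 rose by 1.17 in *lpin-1(RNAi)* worms and by 0.57 in WT worms (adjusted p = 0.000215 and 0.0401 by edgeR), but the call in WT worms held with only 6 of the 12 libraries left out in turn. In *lpin-1(RNAi)* worms *gpi-1* (0.39), the isomerase that feeds glucose-6-phosphate into glycolysis, *pgm-1* (0.44), *rml-1* (0.40) and T04A8.7 (0.49) rose too. With each of the 12 libraries left out in turn, *gpi-1* kept its call in 7 cases, *pgm-1* in 8, and *rml-1* and T04A8.7 in 5 each. All 4 were lost without the first *lpin-1(RNAi)* library on glucose-rich diets (adjusted p = 0.115 to 0.217 by edgeR). Only *aagr-1* and D1005.2 passed with every library left out, and the number of the 19 called ranged from 2 to 7. *rml-1* also missed the threshold with library totals alone, without a filter, and with at least 10 counts in every library (adjusted p = 0.0524 to 0.0781 by edgeR). None of the 19 passed the interaction test in edgeR, where 1.61% of all tested genes passed, with 5 of 19 at an unadjusted p under 0.05, against 9.94% of all tested genes, and none called by DESeq2. *gyg-1* and *gyg-2*, the glycogenins that prime glycogen, and the phosphorylase kinase subunit genes *phkg-1* and *phka-1* passed in none of the 5 comparisons.

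The genes whose levels most resembled those of *tps-2*, *tre-1* and *pygl-1*, the genes with the highest mean CPM among the synthesis, trehalase and glycogen genes, were found by Pearson's r over the 12 libraries on log2 CPM. For *tps-2* they were B0303.11 (r = 0.950), *nol-14* (r = 0.950) and T04F3.1 (r = 0.949). For *tre-1* they were *pud-2.2* (r = 0.992), *lact-8* (r = 0.992) and F20G2.2 (r = 0.989), and for *pygl-1* they were *pqn-27* (r = 0.980), Y57A10A.31 (r = 0.974) and *tba-1* (r = 0.974). The libraries share conditions and scaling, and *pud-2.2* has near-identical copies that can divide its reads. Such values describe these samples and were not tested.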

How the data were processed

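Libraries of whole N2 worms were made with a stranded TruSeq kit, per the labels. What the authors deposited is 1 expected count for each gene in each library, as an estimating counter gives it, not normalized. The submitters' processing notes name STAR 2.7.0e, RSEM 1.3.1 and DESeq2 1.22.2 and the builds WBcel235 and ce11, without saying which step each served. A fractional value occurred in 1903 genes, and values were rounded to whole numbers. Estimated counts divide reads that match several genes, which can blur close paralogs. WormBase IDs gave 43818 genes a symbol, and exon lengths, coordinates and overlaps are those of Ensembl release 115.

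Genes kept by filterByExpr of edgeR (minimum count 10) were scaled with TMM and fitted in edgeR 4.0.16 (R 4.3.3) with a quasi-likelihood model, one mean for each group and 8 residual degrees of freedom. P-values were adjusted by Benjamini-Hochberg over the 14696 genes tested, with a threshold of 0.05. Standard errors and 95% intervals come from the same fit. Scripts were tested on simulated data. Replicates of a group differed by more than sampling noise (chi-square per gene 8.788 to 68.7), so each counted as 1 sample.

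Alternatives were DESeq2 1.42.0, RLE scaling, library totals alone, no filter, at least 10 counts in every library, only the groups compared, a replicate block and each library left out. For *lpin-1* RNAi, same-numbered libraries deviated together in every pair (correlations 0.310, 0.532 and 0.283 on control diets, and 0.199, 0.348 and 0.252 on glucose-rich diets). For glucose these correlations were as low as 0.0439, and the numbers were not taken as pairs there. In every comparison the blocked value is given where it changed the call of a gene among the 10. All other values come from the fit without the block.

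All 10 genes were named, and other pathway genes where they passed the test. Genes of like pattern were the 3 with the highest correlation to the gene with the highest mean CPM of each role. The genes and lists were chosen with earlier results of these data known. Sequences were not used here.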

Additional observations from a re-analysis of the deposited data

How the results depend on the processing

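Of 940 values of single genes under the 7 alternatives and with the 12 libraries left out in turn, 860 kept their direction and their side of the threshold, 33 lost and 14 gained a call, and 33 changed sign, all of them uncalled.

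For glucose in WT worms the same replicate number gave correlations of 0.0594, 0.394 and 0.299, and in *lpin-1(RNAi)* worms of 0.0666, 0.156 and 0.0439, so these numbers were not taken as pairs. With the replicate block, 2 of the 10 genes passed for glucose in WT worms (*tps-1* at log2 0.47, adjusted p = 0.0241, and *tre-2* at -0.27, adjusted p = 0.0306, by edgeR), 6 in *lpin-1(RNAi)* worms (*tps-1*, adjusted p = 0.0407, and *pygl-1*, adjusted p = 0.00695, added) and 1 in the interaction (*gob-1*, 0.53, adjusted p = 0.0189). Beyond these and *tps-2* on control diets, the block changed no other call of the 10 genes. DESeq2 and the requirement of at least 10 counts each called 1 gene, *gob-1*, in the interaction.

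With libraries left out, the number of the 10 genes called was 0 to 0 for glucose in WT, 1 to 5 for glucose in *lpin-1(RNAi)*, 4 to 6 for *lpin-1* RNAi on control diets, 2 to 6 on glucose-rich diets and 0 to 0 for the interaction. The 2 on glucose-rich diets, *tps-1* and *tre-1*, were without the third *lpin-1(RNAi)* library there. Log2 fold changes that changed sign lay between -0.24 and 0.18 for *tps-2* and -0.12 and 0.089 for *tre-3* (glucose, WT), -0.027 and 0.40 for *tps-2* and -0.11 and 0.065 for *tre-4* (glucose, *lpin-1(RNAi)*), -0.16 and 0.020 for *tre-4* and -0.33 and 0.027 for *pygl-1* (*lpin-1* RNAi, control diets), -1e-04 and 0.26 for *tre-4* and -0.097 and 0.13 for *pygl-1* (*lpin-1* RNAi, glucose-rich diets), and -0.37 and 0.063 for *tps-1* and -0.29 and 0.097 for *tre-5* (interaction). With library totals alone the sign changed for *tre-4* with glucose in *lpin-1(RNAi)* (-0.075), for *gob-1* (0.093), *tre-4* (0.19) and *pygl-1* (0.066) with *lpin-1* RNAi on control diets, and for *tre-3* on glucose-rich diets (0.024). Without a filter it changed for *tre-4* with glucose in *lpin-1(RNAi)* (-0.026) and *pygl-1* with *lpin-1* RNAi on glucose-rich diets (-0.022). The cause was not tested.

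Over all tested genes, the block called 1522 in place of 824 for glucose in WT and 3411 in place of 1911 in *lpin-1(RNAi)* worms. The interaction had 463 in DESeq2 and 488 with the block in place of 236. Leaving out libraries gave 415 to 962, 1261 to 2711 and 138 to 362 for these comparisons. With library totals alone, 31.4% of the calls for glucose in *lpin-1(RNAi)* worms were rises, in place of 42.4%. *tre-5* had the lowest counts of the 10 genes, 12 to 62 in a library, and whether depth limited its calls was not tested.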
